A study of Arabidopsis thaliana with 30 samples.

Results

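Developing seeds of 2 Arabidopsis thaliana mutants, lec1-1 and lec2-1, were compared with each other at 12 days after flowering (DAF). The comparison used 6 of the 30 arrays of the series, 3 of homozygous lec1-1 and 3 of homozygous lec2-1, chosen by their titles, and all 22746 probe sets other than the AFFX controls. Both mutants were in the WS background, each gene was represented by 1 mutant allele, and the seeds had been taken out of siliques of plants grown in long days, each replicate from its own batch of plants. WS seeds of the same age (3 arrays) gave the wild-type level. The same 3 genotypes at 8 DAF, and fus3-3 and Col-0 seeds at 12 DAF, with 3 arrays each, were used where stated. Whole seeds hold the embryo, the endosperm and the maternal seed coat, and in such bulk RNA fewer cells of a type and less RNA per cell cannot be told apart.

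LEAFY COTYLEDON1 is a NF-YB subunit of the CCAAT-binding NF-Y complex, and LEAFY COTYLEDON2 is a B3-domain transcription factor that binds RY motifs. Both act in the embryo, where they promote embryo identity and the maturation programme of storage protein, oil and desiccation tolerance and hold back traits of the seedling and the leaf. FUSCA3, mutated in fus3-3, is another B3-domain regulator of maturation. LEC1 and LEC2 were not named by a probe set of a single gene, so the genotypes could not be checked on their own transcripts and were taken from the labels.

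The values were log2 signal after GCRMA, on a scale whose lowest array values lay near 1.66 to 1.75, so a mean under 3 is close to the floor and a fold change against it is read as a lower limit. Array medians were 4.64 to 4.71 in lec1-1, 4.53 to 4.58 in lec2-1 and 4.29 to 4.34 in WS. Replicates correlated at r = 0.9946 to 0.9963 in lec1-1 and 0.9932 to 0.9947 in lec2-1, and arrays of different mutants at 0.9487 to 0.9645. The 3′ minus 5′ signal of the GAPDH control, a sign of RNA integrity, was 1.86 ± 0.02 in lec1-1, 2.19 ± 0.13 in lec2-1 and 2.25 ± 0.06 in WS (SD, n = 3 each). For the actin control it was 5.47 ± 0.18 in lec1-1, 5.32 ± 0.10 in lec2-1 and 5.33 ± 0.02 in WS. The part of these offsets in the results was not tested.

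The lec1-1 and lec2-1 seeds differed at 2994 probe sets, 13.2% of those tested, by limma's moderated test at an adjusted p under 0.05 (Benjamini-Hochberg) and a fold of at least 2. Of these, 1633 (7.18%) were higher in lec1-1 and 1361 (5.98%) were lower. Differences of at least 4-fold were found for 302 higher and 317 lower probe sets, and of at least 16-fold for 25 and 24. Genes named by a probe set of their own gave 736 rises (5.54% of 13286 genes) and 733 falls (5.52%). The 3 arrays of each mutant did not overlap for 1625 of the 1633 and 1355 of the 1361 probe sets. That alone says little here, because the arrays also did not overlap for 67.5% of all probe sets (22.0% higher and 45.5% lower in lec1-1), whose median difference was −0.03.

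**Figure D1:**
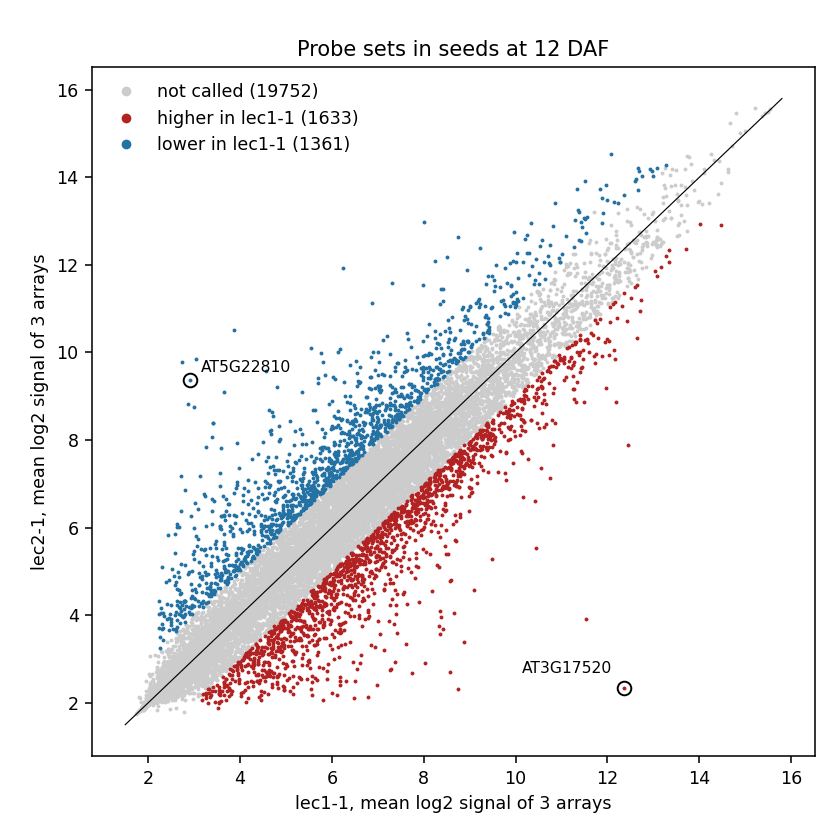
Mean log2 signal of each of 22746 probe sets in lec1-1 seeds (horizontal axis) and lec2-1 seeds (vertical axis) at 12 DAF, 3 arrays each, with the line of equal signal. The 1633 probe sets called higher in lec1-1 are red, the 1361 called lower are blue, and circles mark the named gene with the largest rise (AT3G17520) and the one with the largest fall (AT5G22810).

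Wild-type seeds were mostly closer to lec2-1. Over the 1633 higher probe sets the array means were 7.22, 7.19 and 7.15 in lec1-1, 5.57, 5.42 and 5.71 in lec2-1, and 4.58, 4.61 and 4.57 in WS. Over the 1361 lower ones they were 5.99, 6.07 and 6.15 in lec1-1, 7.77, 7.84 and 7.67 in lec2-1, and 8.13, 8.09 and 8.10 in WS. Because these probe sets were chosen by the difference between lec1-1 and lec2-1, the order of the mutants was fixed and only the place of WS was free. In both sets the WS array means lay beyond those of lec2-1, on the side away from lec1-1. The WS mean lay nearer to lec2-1 for 1577 of the higher probe sets (96.6%) and 1305 of the lower ones (95.9%), against 83.8% of all probe sets. It lay beyond lec2-1, below it for rises and above it for falls, for 1295 (79.3%) and 1121 (82.4%). For this position the share over all probe sets was not counted. Against WS itself, lec1-1 differed at 5347 probe sets (23.5%) and lec2-1 at 1795 (7.89%), 2 comparisons that share the WS arrays. Rises were called in lec1-1 for 12.7% and falls for 10.8% of probe sets, and in lec2-1 for 6.3% and 1.59%. Rises made up 79.8% of the lec2-1 calls, or 64.7% with arrays centred on reference genes. Without the fold minimum the balance turned: rises were then 33.6% of the lec2-1 calls (2871 higher, 5666 lower) and 33.5% of the lec1-1 calls (5129 higher, 10202 lower), against 54.0% of the lec1-1 calls with it.

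Most of the called probe sets also differed, in the same direction, between fus3-3 and Col-0 seeds at 12 DAF, on arrays that the lec comparison did not use. The fus3-3 seeds were higher than Col-0 for 1376 of the 1633 probe sets that were higher in lec1-1 than in lec2-1, which is 84.3% of that list and 43.4% of the fus3-3 rises. They were lower for 1156 of the 1361, or 84.9% of that list and 39.7% of the fus3-3 falls. Over all probe sets fus3-3 was called for 26.7%, higher for 13.9% and lower for 12.8%. The rises made up 52.1% of the fus3-3 calls, or 38.3% after centring on reference genes.

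The largest difference of any named gene was that of AT3G17520, on the list of LEA (late embryogenesis abundant) proteins. Its log2 signal was 12.19, 12.30 and 12.57 in lec1-1, against 2.39, 2.28 and 2.32 in lec2-1, while WS had 13.32, 13.15 and 12.98. The difference of 10.02 ± 0.13 (SE, adjusted p = 6.1e-15, limma), at least 1040-fold, was thus one of lec2-1 standing apart: its 3 arrays were at the floor and the other 2 genotypes were high. At 8 DAF the gene again had 2.27, 2.18 and 2.46 in lec2-1 seeds, with 11.20, 10.92 and 10.71 in lec1-1. AT3G27420 showed the same order, with 6.70, 7.15 and 7.08 in lec1-1, 2.37, 2.46 and 2.37 in lec2-1 and 7.87, 8.28 and 7.96 in WS. Its 8 DAF values in lec2-1 were also at the floor, 2.50, 2.37 and 2.53. Whatever the level in lec2-1, the WS mean lay nearer to lec1-1 for 56 of the 1633 rises (3.43%) and 56 of the 1361 falls (4.11%). Genes at the floor in lec2-1 alone were not counted.

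The other 10 of the 12 named largest rises were genes low in both lec2-1 and WS. AT5G38020 had 8.85, 9.13 and 8.61 in lec1-1, against 3.85, 2.20 and 4.12 in lec2-1 and about 2.19 in WS, a difference of 5.48 ± 0.34 (adjusted p = 2.4e-08). The second lec2-1 array lay at the WS level and the other 2 above it, a spread also seen for AT4G29690 (4.49, 2.69 and 5.11 in lec2-1). XTH19, a xyloglucan endotransglucosylase/hydrolase of the cell wall, had 9.0, 8.82 and 8.17 in lec1-1, against 4.19, 3.90 and 4.07 in lec2-1 and 4.60, 4.40 and 4.29 in WS (difference 4.61 ± 0.26, adjusted p = 1.0e-08, 24.5-fold). The remaining 8 rises were named in the tables by locus number only, in which the digit after AT is the chromosome. AT3G28310 rose by 5.12, AT2G24560 by 4.52, AT3G28320 by 4.52, AT3G51410 by 4.42, AT4G29690 by 4.25, AT5G23830 by 3.93, AT2G43580 by 3.93 and AT2G29290 by 3.83. AT3G28310 and AT3G28320 have nearly adjacent locus numbers. A further 16 probe sets without a single gene name had larger rises than the smallest of these. The 12 named rises were mixed in fus3-3. Against Col-0, AT3G17520 (−1.18) and AT3G27420 (−1.12) were called lower in fus3-3. AT3G28320 (−0.44), AT2G43580 (−0.17) and AT2G29290 (0.50) were not called there, and the other named rises were called higher.

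The 12 named largest falls were those of genes that were high in lec2-1 and WS, with lec1-1 means between 2.90 (AT5G22810) and 6.88 (AT5G10580). AT5G22810 had 3.25, 2.62 and 2.83 in lec1-1, against 9.41, 9.51 and 9.21 in lec2-1 and 11.07, 11.41 and 11.30 in WS. The difference of −6.48 ± 0.14 (adjusted p = 7.1e-13) is at least 89.0-fold. AT1G71691 had 4.42, 3.24 and 3.31 in lec1-1, against 9.46, 8.90 and 8.94 in lec2-1, a difference of −5.45 ± 0.26. In both genes lec2-1 was itself lower than WS (differences of −1.88 and −1.35, both called).

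The falls with a gene symbol were TBL38 (−4.41), of a family of polysaccharide O-acetyltransferases, CYP71B26 (−4.22), a cytochrome P450, and AGL87 (−4.05), a MADS-box transcription factor. TBL38 had 4.38, 4.99 and 5.03 in lec1-1, against 9.15, 9.23 and 9.26 in lec2-1 and 10.03, 9.88 and 10.16 in WS. The other falls were AT3G25160 (−4.99), AT4G19380 (−4.60), AT2G19320 (−4.58), AT5G10580 (−4.26), AT1G03210 (−3.99), AT1G60970 (−3.93) and AT3G17130 (−3.91). All 12 were also called lower in lec1-1 than in WS. All 12 except AGL87 (−0.81, below the 2-fold minimum) were also called lower in fus3-3 than in Col-0. A further 16 probe sets without a single gene name had larger falls than the smallest of these.

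**Figure D2:**
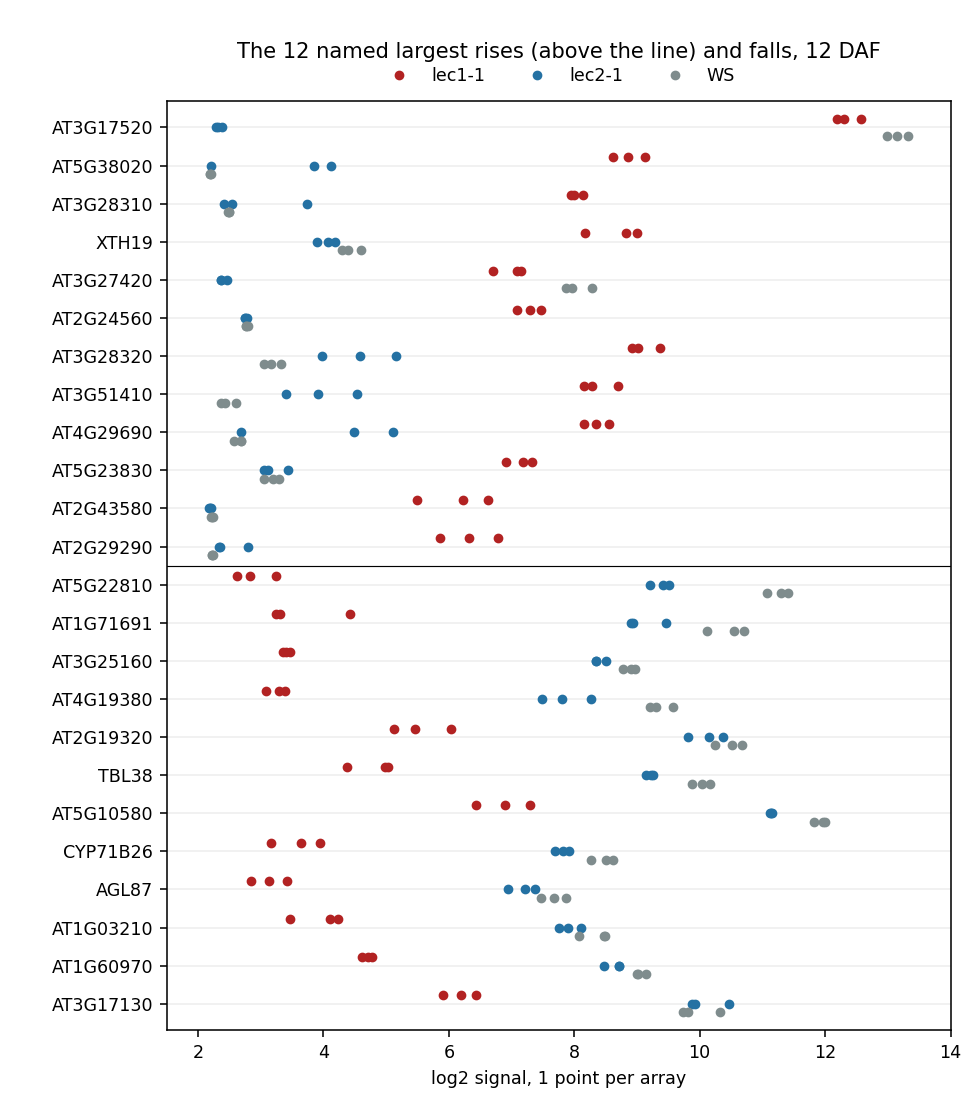
Log2 signal at 12 DAF of the 12 named genes with the largest rises (upper part) and the 12 with the largest falls (lower part), 1 point per array, for lec1-1 (red), lec2-1 (blue) and WS (grey), drawn from top to bottom within each gene. AT3G17520 and AT3G27420 were high in lec1-1 and WS and at the floor in lec2-1, while the other 22 genes set lec1-1 apart from the other 2 genotypes.

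Some smaller differences were very uniform over the replicates. TUB1, a beta-tubulin, had 6.03, 5.87 and 5.80 in lec1-1, against 2.57, 2.54 and 2.49 in lec2-1 and 2.61, 2.53 and 2.52 in WS (3.36 ± 0.10, at least 10.3-fold, adjusted p = 1.6e-11). PRN, a pirin, had 4.80, 5.0 and 4.61 in lec1-1, against 2.42 on each lec2-1 array. AOP3, a dioxygenase of glucosinolate side-chain modification, had 8.45, 8.26 and 8.39 in lec1-1, against 11.51, 11.43 and 11.40 in lec2-1 and 12.20, 11.97 and 12.05 in WS (−3.08 ± 0.06, 8.43-fold, adjusted p = 5.2e-13). AT5G35735 (2.66) and AT3G56870 (−2.55) were likewise among the 4 largest moderated t values in their direction.

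Most measured genes of the reserve lists fell in lec1-1. Beside this and each later list count at 12 DAF stands the share over all 13286 genes, 5.54% higher and 5.52% lower. Of 5 measured genes of the seed storage protein list 4 fell and 0 rose, with a median difference of −1.28 against −0.03 over all probe sets. AT4G36700 had 9.84, 9.83 and 10.20 in lec1-1, against 12.83, 12.70 and 12.69 in lec2-1 and 13.22, 13.15 and 13.28 in WS (−2.78 ± 0.09, 6.88-fold, adjusted p = 8.0e-11). AT2G28490 had 12.92, 12.90 and 12.94 in lec1-1, against 14.16, 14.24 and 14.20 in lec2-1. AT1G03890 fell by 1.00, a call that ended without lec1-1 replicate 1 (−0.98) or lec2-1 replicate 2 (−0.97), after quantile normalization (−0.89) and after centring on reference genes (−0.90). The fifth, PAP85, differed by −0.74, short of the 2-fold minimum.

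Oil body and lipid droplet proteins gave 6 falls and 1 rise among 8 measured genes (median −1.34). OLEO3, an oleosin that coats oil bodies, had 11.34, 11.59 and 11.62 in lec1-1, against 14.02, 13.92 and 13.84 in lec2-1 and 13.93, 13.99 and 14.17 in WS (−2.41 ± 0.09, 5.30-fold, adjusted p = 1.9e-10). The lec2-1 and WS arrays overlapped for this gene. The exception was AT2G47780, with 10.80, 10.76 and 10.85 in lec1-1, 7.57, 8.18 and 7.91 in lec2-1 and 2.61, 2.47 and 2.74 in WS. It rose by 2.92 ± 0.21 over lec2-1 (adjusted p = 1.1e-07), and both mutants were far above WS.

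Of 9 measured genes of fatty acid and oil synthesis, 6 fell, 0 rose and the median was −1.35. FaTA, an acyl-ACP thioesterase that releases fatty acids from the plastid synthase, had 5.36, 4.57 and 4.66 in lec1-1, against 7.88, 8.02 and 8.17 in lec2-1 and 9.03, 9.19 and 9.32 in WS (−3.15 ± 0.16, 8.91-fold, adjusted p = 3.4e-09). The other falls were between −2.12 (AT5G16240) and −1.19 (AT1G24360). FATB, the thioesterase that prefers saturated chains, differed by 0.20 and was not called. In the list of protein storage vacuole genes and proteases 3 of 14 fell and 0 rose. They were AT1G62290 (−1.28) and a pair of vacuolar processing enzymes. These were DELTA-VPE (−2.06), known from the seed coat, and BETA-VPE (−1.18), known from the embryo, where it cleaves storage protein precursors. Their relatives ALPHA-VPE (−0.96) and GAMMA-VPE (−0.48) were not called.

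Only 5 genes of the list of maturation and embryo transcription factors had a probe set of their own, and 2 of them fell. AGL67, a MADS-box factor, had 6.22, 7.23 and 7.12 in lec1-1, against 10.08, 10.30 and 9.34 in lec2-1 and 10.79, 10.65 and 10.56 in WS (−3.05 ± 0.30, adjusted p = 2.2e-06). EEL, a bZIP factor that acts on late maturation genes, had 9.76, 9.78 and 9.90 in lec1-1, against 11.65, 11.86 and 11.25 in lec2-1 (−1.77 ± 0.13, adjusted p = 1.2e-07). BZIP53, a bZIP partner in seed maturation, differed by −0.18 and AGL18 by −0.74, neither called. BBM, an AP2 factor of embryo identity, averaged 2.70 in lec1-1 and 3.55 in lec2-1, against 5.91 in WS, and its difference of −0.85 was not called.

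LEA proteins, hydrophilic proteins that accumulate as seeds dry, went both ways. Of 31 measured genes, 7 rose, 4 fell and 20 were not called, and the median was −0.03. Beside AT3G17520, rises were found for AT4G36600 (3.79), M17 (2.68), M10 (2.55), DI21 (2.32) and LEA18 (2.30). LEA18 had 12.35, 12.67 and 12.89 in lec1-1, against 10.37, 10.61 and 10.02 in lec2-1 and 10.52, 10.26 and 10.20 in WS. For M10 and M17 lec2-1 was the lowest genotype: M10 had 6.75, 5.34 and 6.07 in lec1-1, 3.02, 4.22 and 3.28 in lec2-1 and 7.92, 8.57 and 6.23 in WS. The largest fall was that of the dehydrin gene LEA (AT2G21490), with 11.14, 11.37 and 11.59 in lec1-1, against 13.16, 13.45 and 13.13 in lec2-1. The other 3 falls were near the 2-fold minimum, and the 4 falls became 1 without lec1-1 replicate 1, without lec2-1 replicate 2 or after centring on reference genes.

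**Figure D3:**
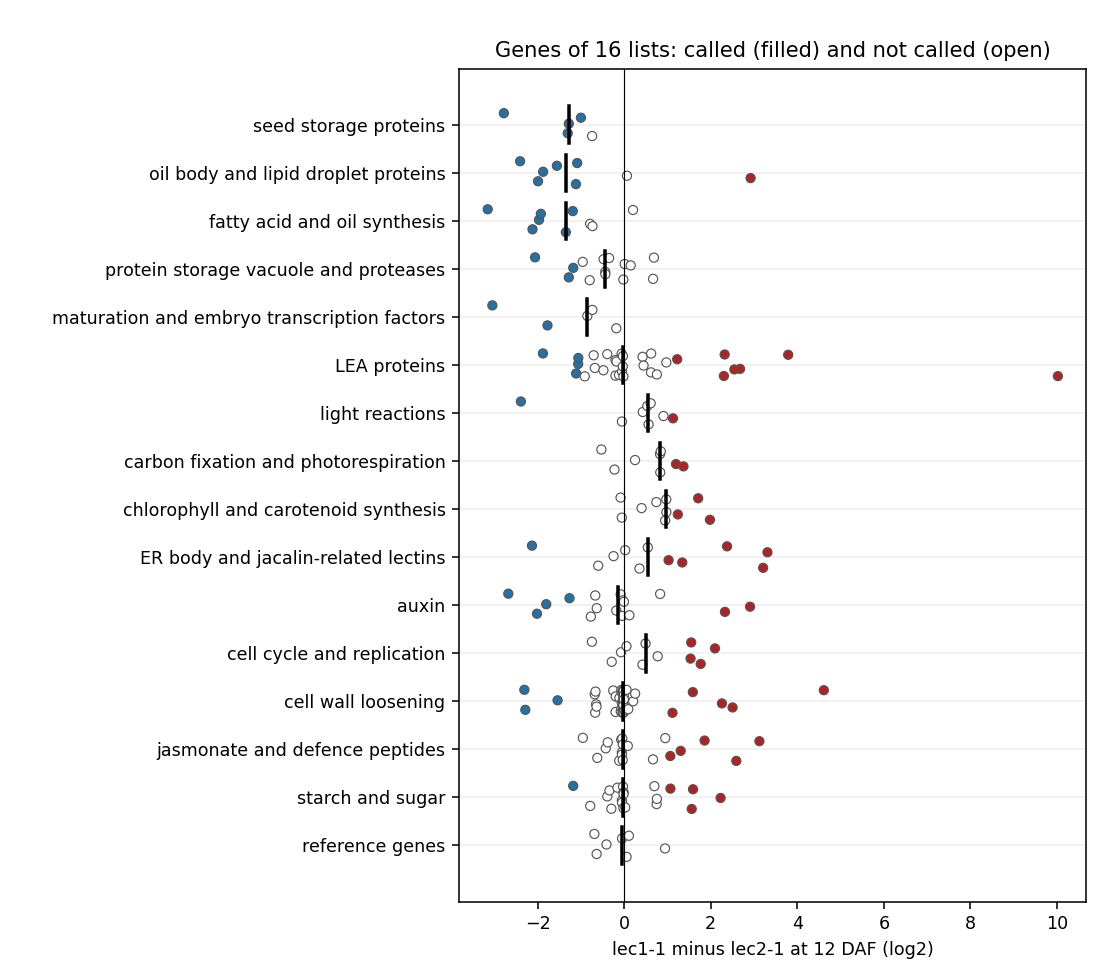
Difference between lec1-1 and lec2-1 at 12 DAF (log2, horizontal axis) of each measured gene of 16 lists, with filled points for genes called higher (red) or lower (blue), open points for genes not called, and a bar at the median of each list. The medians of the storage protein, oil body and oil synthesis lists lie between −1.28 and −1.35, those of carbon fixation and chlorophyll synthesis at 0.83 and 0.96.

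The 3 lists of nuclear photosynthesis and pigment genes had positive median differences, but most of their members were not called. The mean signal of each list was above WS in both mutants: 10.6 in lec1-1 and 10.4 in lec2-1 against 6.48 in WS for the light reactions. For carbon fixation it was 9.39 in lec1-1 and 8.82 in lec2-1 against 6.26 in WS, and for chlorophyll synthesis 7.87 in lec1-1 and 6.99 in lec2-1 against 5.02 in WS. LHCB4.3, AT1G80380 and HEMA3 were exceptions, with means in both mutants below that in WS. The 8 measured genes of the light reactions had a median difference of 0.55, with 1 rise and 1 fall. The 1 rise became 0 without lec2-1 replicate 2 and 2 without lec2-1 replicate 3. LHCB4.2, a minor antenna protein of photosystem II, had 10.76, 10.79 and 10.89 in lec1-1, against 9.79, 9.41 and 9.85 in lec2-1 and 5.53, 4.74 and 4.56 in WS (1.13 ± 0.23, adjusted p = 0.0012). Its call ended without lec2-1 replicate 2 (0.99). Its relative LHCB4.3 went the other way, with 6.72, 6.66 and 7.03 in lec1-1, against 9.38, 9.09 and 9.09 in lec2-1 and 9.40, 9.72 and 9.32 in WS (−2.39 ± 0.13, adjusted p = 4.9e-09).

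In carbon fixation and photorespiration 2 of 8 genes rose and 0 fell (median 0.83). They were AT1G11860 (1.37) and AT1G32470 (1.20), and RCA, the activase of Rubisco, and SBPASE, a bisphosphatase of the Calvin cycle, had differences of 0.83 and 0.85 that were not called. Chlorophyll and carotenoid synthesis gave 3 rises and 0 falls among 10 genes (median 0.96). PORB, a light-dependent protochlorophyllide reductase, had 12.07, 12.05 and 11.73 in lec1-1, against 10.33, 9.68 and 10.72 in lec2-1 and 2.31, 3.60 and 2.46 in WS (1.71 ± 0.34, adjusted p = 0.001). CHLI2, a subunit of magnesium chelatase, had 7.08, 7.04 and 7.11 in lec1-1, against 5.21, 4.25 and 5.82 in lec2-1 and about 3.00 in WS. The second lec2-1 array was lowest for both genes. GSA1, of the first steps of tetrapyrrole synthesis, rose by 1.24. HEME2, HEME1 and HEMB1, also of tetrapyrrole synthesis, had differences of 0.95, 0.97 and 0.98, just short of 2-fold. The 3 rises became 5 without lec1-1 replicate 3 and 6 without lec2-1 replicate 3.

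Genes of the plastid genome were grouped after their values had been seen, because 14 of them formed runs of called neighbours. Of 69 measured, 29 were higher in lec1-1 and 0 lower, where 5.54% of all 13286 genes were higher and 5.52% lower. The 69 plastid genes had a median difference of 0.84. The array medians were 10.47, 10.28 and 10.19 in lec1-1, against 9.50, 9.23 and 9.91 in lec2-1 and 8.59, 8.29 and 8.00 in WS, so that the 3 genotypes did not overlap. The plastid-encoded RNA polymerase (3 of 4 rose, median 1.55) and ribosomal proteins (10 of 15, median 1.47) differed more than photosystem, cytochrome b6f, ATP synthase and Rubisco genes (7 of 33, median 0.70), a contrast that was not tested. The polymerase subunit rpoC1 had 9.68, 9.77 and 9.94 in lec1-1, against 7.84, 7.60 and 7.67 in lec2-1 and 6.42, 5.94 and 5.88 in WS (2.09 ± 0.14, adjusted p = 7.0e-08). The ribosomal protein gene rpl16 had 11.72, 11.80 and 11.70 in lec1-1, against 9.70, 9.67 and 9.92 in lec2-1 (1.98 ± 0.18). In the photosynthetic class the rises included rbcL, the large subunit of Rubisco (1.61). Of the genes of the photosystem reaction centres, psbD rose (1.08), while psaA (0.34), psaB (0.20) and psbA (0.61) were not called. Genes of the NADH dehydrogenase-like complex rose in 6 of 10 cases (median 1.04). Of these, ndhG and ndhH lost their calls without lec1-1 replicate 1 (1.13 for ndhG, 0.82 for ndhH), lec1-1 replicate 3 (1.08, 0.93), lec2-1 replicate 1 (1.02, 0.96) or lec2-1 replicate 2 (1.00, 0.97). Both also lost them in the fit to the 6 arrays alone (adjusted p = 0.13 for ndhG and 0.057 for ndhH, limma), and ndhH after quantile normalization (0.96).

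**Figure D4:**
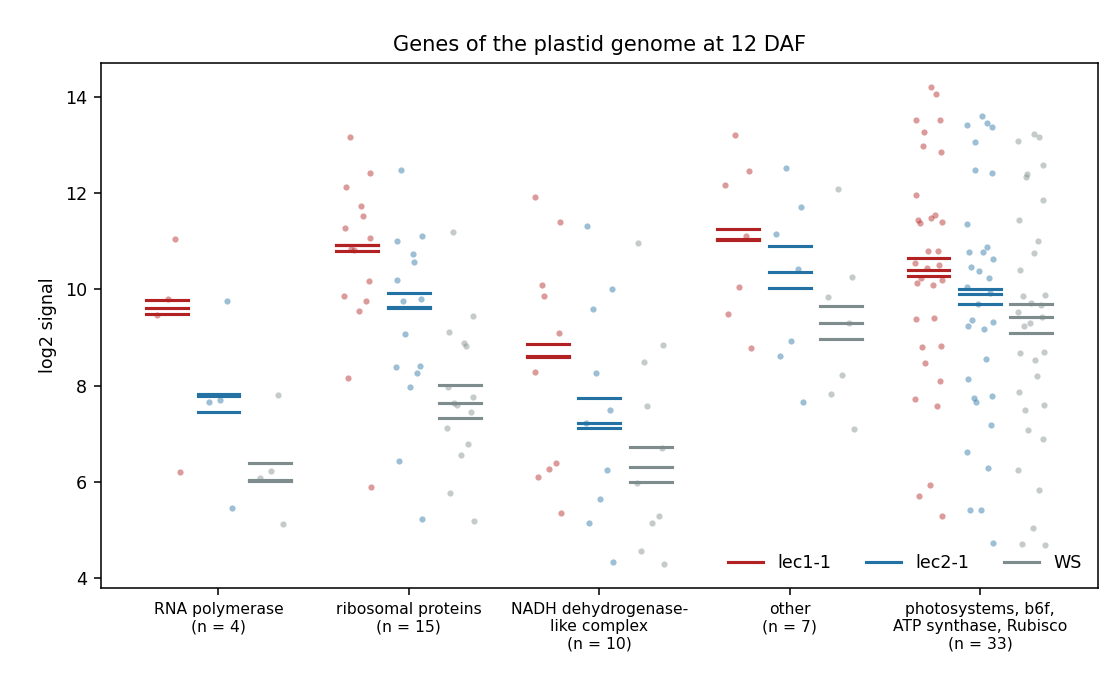
Log2 signal at 12 DAF of 69 plastid genome genes in 5 classes for lec1-1 (red), lec2-1 (blue) and WS (grey). Points are genes (mean of 3 arrays), and the 3 short lines of each colour are the medians over the class on each array. In the RNA polymerase class the lec1-1 medians are 9.62, 9.49 and 9.78, those of lec2-1 7.78, 7.46 and 7.82.

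Genes of ER bodies, endoplasmic reticulum compartments of seedlings and roots that store a beta-glucosidase, were listed together with jacalin-related lectins. Of 11 measured, 5 rose, 1 fell and 5 were not called (median 0.55). PYK10, that beta-glucosidase, had 12.22, 12.21 and 12.10 in lec1-1, against 9.21, 8.44 and 8.95 in lec2-1 and 2.47, 2.44 and 2.53 in WS (3.31 ± 0.16, 9.92-fold, adjusted p = 2.1e-09). JAL34 had 10.42, 10.61 and 10.66 in lec1-1, against 7.49, 6.94 and 7.63 in lec2-1 and 2.55, 2.60 and 2.57 in WS. JAL22 rose by 2.38 and NAI2, a protein needed to form ER bodies, by 1.34. The fifth rise, of NAI1 (1.03), a bHLH factor of ER body formation, lost its call without lec1-1 replicate 1 (0.89) or lec2-1 replicate 1 (0.88). The exception was JAL23, with 4.04, 3.94 and 4.58 in lec1-1, 6.28, 6.09 and 6.58 in lec2-1 and 2.68, 2.68 and 2.66 in WS: it was raised in lec2-1 more than in lec1-1 (−2.13 ± 0.14, adjusted p = 3.6e-08).

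Among glucosinolate and myrosinase genes 3 of 8 rose and 2 fell, the falls being AOP3 and the glucosinolate transporter GTR1 (−1.46). The rises were AT2G31790 (2.21), GSTU20 (1.53), a glutathione transferase, and UGT74B1 (1.28), which glucosylates a glucosinolate precursor. Of 19 jasmonate and defence peptide genes 5 rose and 0 fell, with a median of −0.04. LCR67, a defensin-like peptide, had 8.81, 8.14 and 8.63 in lec1-1, against 5.29, 5.66 and 5.27 in lec2-1 and 8.72, 9.12 and 7.35 in WS (3.12 ± 0.32, adjusted p = 3.6e-06), so that lec2-1 was the genotype apart. PDF2.5, another defensin, was near the floor in both lec2-1 and WS and rose by 2.59. MYC4, a bHLH factor of jasmonate responses, rose by 1.86.

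Auxin genes went both ways, and of 16 measured 2 rose and 4 fell. WAG2, a protein kinase of auxin transport, had 5.85, 5.59 and 5.72 in lec1-1, against 2.54, 2.95 and 2.94 in lec2-1, and GH3.17, an enzyme that joins auxin to amino acids, rose by 2.33. GH3.9, of the same enzyme family, had 3.81, 4.27 and 4.11 in lec1-1, against 6.69, 6.93 and 6.60 in lec2-1 and 7.83, 7.51 and 7.70 in WS (−2.68 ± 0.14, adjusted p = 5.8e-09). The Aux/IAA repressors that fell were IAA31 (−2.02), IAA30 (−1.80) and IAA34 (−1.26), the last by a call that ended without lec1-1 replicate 1 (−0.99) and in the fit to the 6 arrays alone (adjusted p = 0.054, limma). No gene of 6 in the gibberellin list was called, GID1A (0.03) and SPY (−0.04) having the highest signal. The list of abscisic acid genes had no measured member.

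In the cell cycle and replication list 4 of 11 rose and 0 fell (median 0.49), among them PRL, a replication licensing factor of the MCM family, with 6.67, 6.58 and 6.44 in lec1-1, against 4.53, 3.79 and 5.08 in lec2-1 and 1.87, 2.23 and 1.91 in WS. POLA3, a DNA polymerase alpha subunit, rose by 1.53, and the Aurora kinases AUR3 and AUR1 rose by 1.77 and 1.55 over lec2-1 levels close to the floor. Of 43 genes of cell wall loosening 5 rose (11.6%) and 3 fell (6.98%), with a median of −0.03, where 5.54% of all 13286 genes rose and 5.52% fell. After XTH19 the rises were EXPA20 (2.50), an expansin, GH9B13 (2.26), an endoglucanase, XTH16 (1.59) and EXLA2 (1.11). GH9B8 (−2.31), EXPB1 (−2.29) and GH9C2 (−1.54), of the same families, fell.

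Starch and sugar genes gave 4 rises and 1 fall among 20. APL3, a subunit of the pyrophosphorylase that starts starch synthesis, had 8.06, 8.04 and 8.36 in lec1-1, against 5.88, 5.80 and 6.10 in lec2-1 and 3.22, 4.73 and 3.61 in WS. The sucrose transporter SWEET11 had 11.05, 11.17 and 11.42 in lec1-1, 9.86, 9.38 and 9.72 in lec2-1 and 12.24, 12.56 and 12.58 in WS, another gene lowest in lec2-1. SWEET7 fell by 1.18. In the remaining lists single genes moved. AT4G21870 (2.02) was the 1 rise among 8 small heat shock proteins. GIS, a zinc finger regulator of trichomes, fell by 1.64, 1 of 2 falls among 3 genes of trichome formation. The other, TRY (−1.01), lost its call without lec1-1 replicate 1 (−0.93) or 3 (−0.98) or lec2-1 replicate 3 (−0.97), or after centring on reference genes (−0.91). CLE27 (1.34) and YAB5 (−1.08) were the calls among 11 meristem genes, and YAB5 lost its call without lec2-1 replicate 1 (−0.96) or after centring on reference genes (−0.98). UF3GT (1.08) was the 1 rise among 10 measured genes of the flavonoid list, a call that ended in each fit that left out 1 array (range of the difference 1.00 to 1.20). The list took in AT2G43570 under the symbol CHI (−0.33, not called), and a part of this locus in flavonoid synthesis is not shown here. The 1 rise of this list became 0 without lec1-1 replicate 2 or 3 or lec2-1 replicate 1 or 2, and 2 rises, of other genes, without lec1-1 replicate 1 or lec2-1 replicate 3. None of 4 reserve mobilisation genes was called, with ICL, isocitrate lyase of the glyoxylate cycle, at 12.47, 12.77 and 12.50 in lec1-1, against 12.48, 12.73 and 12.35 in lec2-1. None was called among 2 genes of the cuticle list and 1 gene, VTC4, of the raffinose list.

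Few markers of other seed tissues could be measured. Of 3 endosperm markers AGL62 and IKU2 were at the floor in both mutants (2.39 and 2.58 in lec1-1, 2.44 and 2.65 in lec2-1), while MPC, a maternally expressed gene, had 6.40, 6.77 and 5.26 in lec1-1, against 3.81, 2.88 and 4.18 in lec2-1 and 2.88, 2.75 and 2.63 in WS (2.52 ± 0.33, adjusted p = 3.1e-05). The mean over the 3 endosperm markers ran from 3.41 to 3.91 on the lec1-1 arrays, 2.67 to 3.08 on the lec2-1 arrays and 2.67 to 2.73 on the WS arrays. Of 3 seed coat markers none was called, and their mean was 4.79 to 4.97 in lec1-1, 4.61 to 5.0 in lec2-1 and 4.74 to 5.13 in WS. BAN, the anthocyanidin reductase of the seed coat, averaged 2.34 in lec1-1, 2.63 in lec2-1 and 2.76 in WS. AT3G50990 averaged 2.37, 2.45 and 2.57, so both genes were close to the floor in all genotypes. Only ARA12 was well above it, with 9.88 in lec1-1, 9.34 in lec2-1 and 9.63 in WS, a difference of 0.54. DELTA-VPE, given above as known from the seed coat, was not on this list and fell (−2.06). The silique wall marker ALC differed by 0.50 and was not called. The part of seed tissue make-up in the other results was not tested.

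At 8 DAF the mutants differed at 1356 probe sets (5.96%), 646 higher (2.84%) and 710 lower (3.12%) in lec1-1, fewer than at 12 DAF. The higher share of 47.6% became 63.7% after centring on reference genes, which moved the median of all probe sets from −0.002 to 0.16. The calls of the 2 ages come from separate arrays. Of the 1633 rises at 12 DAF, 397 were also rises at 8 DAF (24.3% of the later and 61.5% of the earlier list), and of the 1361 falls, 392 were (28.8% and 55.2%). Only 8 probe sets that were higher at 12 DAF were lower at 8 DAF, and 15 did the reverse. The difference between mutants itself changed with age for 1944 probe sets (8.55%), by limma's test of the interaction. It was more positive at 12 DAF for 1092 (4.8%) and more negative for 852 (3.75%).

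The photosynthesis and LEA lists had called interactions of mostly opposite sign. The light reaction genes had a median difference of 0.55 at 12 DAF and −0.83 at 8 DAF, with the interaction called for 6 of 8, all upwards. In carbon fixation it was 0.83 at 12 DAF and −0.34 at 8 DAF, again with 6 of 8 called upwards. In chlorophyll synthesis it was 0.96 at 12 DAF and −0.02 at 8 DAF, with 4 of 10 called upwards. The LEA list had 12 rises and 1 fall at 8 DAF, and the interaction was called downwards for 11 and upwards for 4 of 31. AT3G15670, a LEA gene, had 13.38, 13.48 and 13.63 in lec1-1 at 12 DAF, against 14.03, 14.39 and 14.11 in lec2-1 and 14.23, 14.13 and 14.04 in WS. At 8 DAF its values were 13.47, 13.37 and 13.13 in lec1-1, against 8.98, 8.74 and 8.82 in lec2-1 and 8.48, 8.41 and 8.52 in WS, and the interaction was −5.15 (adjusted p = 1.5e-10). The lec1-1 level was high at both ages and that of lec2-1 and WS only at 12 DAF.

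AT1G54870 changed sign. It had 11.27, 11.35 and 11.52 in lec1-1 at 12 DAF, against 13.08, 13.42 and 13.09 in lec2-1, and at 8 DAF 8.79, 8.62 and 7.97 in lec1-1, against 4.70, 4.31 and 4.84 in lec2-1. The interaction was −5.66 ± 0.65 (adjusted p = 5.0e-05). AT3G19920 (−5.11) and AT1G16850 (−5.03) followed, both called higher in lec1-1 at 8 DAF. At 12 DAF they also had the opposite sign (−0.90 and −0.88), short of the 2-fold minimum. The largest interactions upwards were those of AT2G43580 (3.92), AT2G29290 (3.82), AT1G67330 (3.74) and AT2G14900 (3.72). The first 3 were at the floor in all 3 genotypes at 8 DAF and above it only in lec1-1 at 12 DAF: AT1G67330 had 6.21, 5.36 and 5.83 in lec1-1, against 2.06, 2.07 and 2.04 in lec2-1 and 2.07, 2.08 and 2.08 in WS. AT2G14900 differed otherwise, with 8.71, 8.66 and 8.64 in lec1-1, against 6.04, 5.09 and 6.04 in lec2-1 at 12 DAF, and 7.76, 7.91 and 7.75 in lec1-1, against 8.41, 8.78 and 8.53 in lec2-1 at 8 DAF. The medians of the reserve lists were negative at both ages: the storage protein median was −0.92 at 8 DAF, that of oil bodies −0.92 and that of fatty acid synthesis −1.55.

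**Figure D5:**
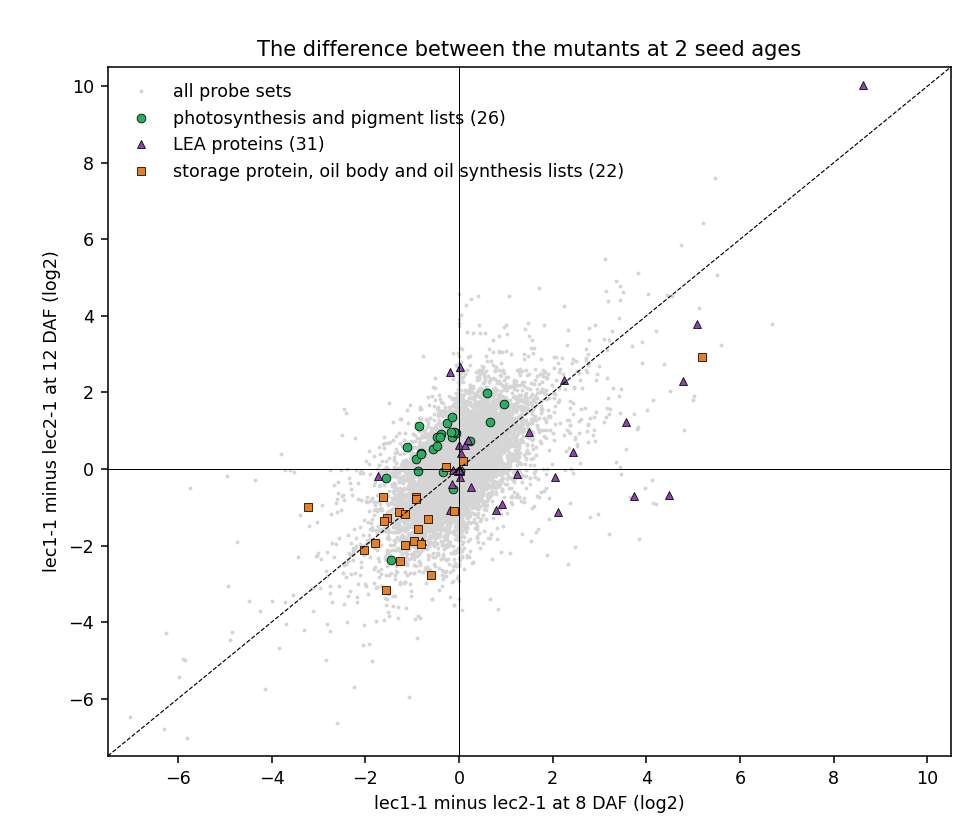
Difference between lec1-1 and lec2-1 (log2) at 12 DAF (vertical axis) and 8 DAF (horizontal axis) for all probe sets (grey) and for the genes of 7 lists, with the diagonal of equal differences dashed. Photosynthesis and pigment genes (green) lie mostly above the diagonal, and LEA genes (purple) with early rises lie below it, such as AT3G15670 with −0.68 at 12 DAF and 4.48 at 8 DAF.

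Neighbouring genes called together formed 6 runs of at least 3. On chromosome 1 the genes AT1G01225 (−2.50), AT1G01230 (−1.01), AT1G01240 (−1.14) and AT1G01250 (−2.31) fell, the second of them by a call that ended without lec2-1 replicate 1 (−0.998), after quantile normalization (−0.997) and after centring on reference genes (−0.91). On chromosome 5 AT5G38160 (−2.63), AT5G38170 (−2.18) and AT5G38180 (−3.27) fell. AT5G38160 had 9.93, 10.02 and 11.05 in lec1-1, against 13.23, 12.70 and 12.95 in lec2-1 and 12.67, 12.78 and 12.91 in WS, and AT5G38170 followed it array by array, with 9.51, 9.50 and 10.60 in lec1-1. Cross-hybridisation between these neighbours was not tested. On chromosome 2 the glucosyltransferase gene UGT87A2 (1.65), AT2G30150 (2.44) and AT2G30160 (2.11) rose. The other 3 runs lay on the plastid genome: rps2 to rpoC1, rpl14 to rps19 and ndhE to rps15, all rises. Within rpl14 to rps19, rps3 (1.02) lost its call without lec2-1 replicate 1 (0.95) or 2 (0.96), which breaks that run. Within ndhE to rps15, ndhG and ndhH lost their calls as given above.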

How the data were processed

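Log2 signal per probe set was used as deposited by the authors, for 22810 probe sets of which 64 are AFFX controls. The submitters' processing notes name GCOS 1.3 and GCRMA. No source used here gives the version of GCRMA or states that the 30 arrays went through it in one run. The files hold no detection calls, and precision is limited by 3 arrays per group. Of the probe sets tested, 13513 were paired with 1 gene, 503 with several and 8730 with none by GEO's platform annotation, and 13436 were matched to loci of the TAIR10.1 gene table. Where a gene had several such probe sets, the one with the highest mean was used.

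Groups were taken from the labels, which call the samples biological replicates. limma 3.58.1 in R 4.3.3 was fitted to the 18 WS-background arrays with 1 mean per group and moderated variances, and to the 12 Col-0-background arrays for fus3-3. P-values were adjusted by Benjamini-Hochberg over 22746 probe sets, and a call needed an adjusted p under 0.05 and 2-fold. Differences are lec1-1 minus lec2-1 with the fit's standard error. The fit was tested on simulated data.

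Named are the 12 largest rises and falls among called genes whose arrays do not overlap and whose higher mean reaches the median of 4.64, up to 6 called genes per list and direction (otherwise the 2 with the highest mean), the 4 largest interactions with age and the 4 largest t in each direction, and runs of at least 3 called neighbours. Lists (28, with 1477 genes, 277 of them measured) and comparisons were chosen with earlier results of these data known. 5 genes that shared only a symbol with a list were dropped after their values had been seen. The other members stayed as matched by locus or symbol. Deviations of same-numbered lec1-1 and lec2-1 arrays were not positively correlated (−0.058, −0.002 and −0.196), and those of lec1-1 replicate 1 and lec2-1 replicate 3 correlated at 0.172. With 3 arrays per group these values cannot settle whether the numbers pair the arrays, and the main fit used no pairing. Alternatives varied the normalization, centring, filter, arrays in the fit, variance model and thresholds, and left out each array in turn.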

Additional observations from a re-analysis of the deposited data

Results flagged for a closer look

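The difference between lec1-1 and lec2-1 depended on seed age for 1944 probe sets, by the test of the interaction (12 DAF difference minus 8 DAF difference). Among the genes named for size or for age, those with a called interaction are given here, all values on the log2 scale. Interactions were positive for AT3G17520 (1.39), AT5G38020 (2.36), AT3G28310 (1.31), AT2G24560 (3.45), AT4G29690 (2.01), AT2G43580 (3.92), AT2G29290 (3.82), AT1G67330 (3.74) and AT2G14900 (3.72). They were negative for AT4G19380 (−2.55), AT2G19320 (−2.65), TBL38 (−3.51), CYP71B26 (−1.48), AGL87 (−1.22), AT1G03210 (−1.59), AT1G60970 (−2.32), AT3G17130 (−2.98), AT1G54870 (−5.66), AT3G15670 (−5.15), AT3G19920 (−5.11) and AT1G16850 (−5.03). TBL38 had 6.74, 6.89 and 6.90 in lec1-1 at 8 DAF, against 7.61, 7.75 and 7.88 in lec2-1, so that most of its gap was found at 12 DAF. For AT3G17520 the lec2-1 mean was at the floor at 8 DAF (2.30) and 12 DAF (2.33), so both of its differences are lower limits. Its mean went from 10.94 to 12.35 in lec1-1 and from 10.43 to 13.15 in WS.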

How the results depend on the processing

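The count of 2994 probe sets stayed within 1.5 times under all alternatives that kept the probe sets and the 2-fold minimum. With 1 probe set per gene it was 1467 (735 higher, 732 lower), and without a fold minimum 8218 (4341 and 3877). The same alternatives gave 675 and 4828 calls at 8 DAF, 918 and 4166 for the age interaction, 2704 and 15331 for lec1-1 against WS, 852 and 8537 for lec2-1 against WS, and 3117 and 10355 for fus3-3 against Col-0, as follows from fewer features tested and from the lower threshold. With 1 array left out the count was 2802 (without lec2-1 replicate 2) to 3240 (without lec2-1 replicate 3), with 1494 to 1785 rises and 1296 to 1455 falls. The other ranges were 1335 to 1403 at 8 DAF, 1713 to 2127 for the interaction, 5298 to 5461 and 1665 to 1934 for lec1-1 and lec2-1 against WS, and 5855 to 6220 for fus3-3. The replicate block gave 2993 calls and the fit to the 6 arrays alone 2904. Centring on reference genes gave 1945 rises and 1151 falls, or 62.8% rises in place of 54.5%. Of 138 named genes that were called, 17 lost the call under at least 1 of 13 alternatives and 0 reversed. A gene that the filter on mean signal removed was not counted as losing its call there. Of 20 lists with at least 5 measured genes, 6 had a median that changed sign under some alternative (LEA proteins, starch and sugar, meristem, cell wall loosening, jasmonate and defence peptides, and small heat shock proteins). With the 40% of probe sets of lowest signal left out, the median was 1.07 for jasmonate and defence peptides and 0.73 for starch and sugar. The lower of both means was under 3, which makes the fold a lower bound, for 211 of the 1633 rises (12.9%) and 99 of the 1361 falls (7.27%).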
